A study of Mus musculus with 3 samples.

Results

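Horizontal cells are interneurons of the outer retina. Their processes enter the terminals of rods and cones, where they receive glutamate and return inhibition to photoreceptors and bipolar cells, and gap junctions join neighboring horizontal cells into a network. They develop from progenitors that pass through Foxn4 and Ptf1a, and the mature cells keep the homeobox factors Lhx1, Onecut1 and Prox1. The libraries were sorted for Müller glia (MG), so horizontal cells were not the target and are neurons that came through the sort. They were chosen as barcodes with at least 2000 detected features, at most 15% mitochondrial UMIs, 3 or more UMIs of Lhx1, 3 or more UMIs of Onecut1, and fewer than 20 UMIs per 10000 of the MG genes Glul, Rlbp1, Aqp4 and Kcnj10 together, where a UMI is a tag that counts an mRNA molecule once. The rule found 80 horizontal cells among 31011 barcodes that passed the feature and mitochondrial filters.

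All mice carried Glast-CreERT2 and R26-CAG-LSL-Tdt, in which Cre expressed from the glial Glast promoter opens a tdTomato reporter, and received tamoxifen at 75 mg/kg for 5 days from postnatal day (P) 20. Control retinas were injected at P28 with AAV7m8-GFAP-GFP-LacZsh. CCA (cell cycle activator) retinas received AAV7m8-GFAP-cyclinD1-p27sh, which expresses cyclin D1 and an shRNA to p27Kip1, mixed 9:1 with the control virus, and CCANT retinas received that mixture followed by NMDA at P35 and the histone deacetylase inhibitor TSA at P37. Retinas were harvested at P51, 2 to 4 were pooled in each group, and each group gave 1 droplet library of tdTomato-sorted cells. The GFAP promoter of the viruses was chosen for expression in MG, so neither the viruses nor Cre were aimed at horizontal cells. How many mice a library held was not given in the sources used here.

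With 1 library per group, differences between groups have no replicate check, and no test is given. Intervals are exact 95% intervals that cover counting error only, binomial (Clopper-Pearson) for shares and Poisson for levels and ratios. Levels are UMIs per 1000000 of the summed UMIs of the cells (CPM), and ratios are on the log2 scale. Sex differed with the library. All 25 control horizontal cells held Y-linked transcripts (at least 3 UMIs over 4 genes) with no more than 1 UMI of Xist (Y-positive cells), all 26 CCA cells were the reverse, and of the CCANT cells 8 were Y-positive, 16 the reverse and 5 met neither description. Among those 5, a cell held both, with 17 Y-linked and 32 Xist UMIs. Treatment and sex therefore cannot be told apart between CCA and control. The libraries shared 38 filtered barcodes between control and CCA, 24 between control and CCANT and 24 between CCA and CCANT, but no horizontal cell's barcode was among them.

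The control library held 25 horizontal cells of 9589 filtered barcodes, or 0.261% (0.169 to 0.385). The CCA library held 26 of 10527, or 0.247% (0.161 to 0.362), and the CCANT library 29 of 10895, or 0.266% (0.178 to 0.382). These intervals overlapped, so no difference in share was detectable at this number of cells, and the sort for tdTomato lies between the retina and every share. Counted together with amacrine-like cells of the same sort, horizontal cells made up 6.83% (4.47 to 9.92), 5.59% (3.68 to 8.09) and 7.46% (5.05 to 10.5). UMIs per horizontal cell had a median, lowest and highest of 56530 (38256 to 75681) in the control, 46550 (26472 to 83416) in the CCA and 52502 (4223 to 71308) in the CCANT library. Of the 80 cells, 0 were in the table of cells that the authors kept after their filters, which removed tdTomato-negative cells, called doublets and small clusters of other cell types. A tdTomato UMI was present in 11 of the 80.

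Lhx1, a LIM homeodomain factor, ranged from 3 to 107 UMIs per horizontal cell with a median of 37, and Onecut1, a cut homeodomain factor, from 5 to 83 with a median of 34. These genes chose the cells and their values are a description, as the plot of their UMIs shows. Just outside lay 5 barcodes under the MG ceiling with at least 1 UMI of each gene, in which Lhx1 and Onecut1 gave 1 and 3, 1 and 1, 1 and 3, 3 and 2, and 2 and 1 UMIs. Under that ceiling, 2 barcodes outside the rule held 3 or more Lhx1 UMIs and 245 held 3 or more Onecut1 UMIs, so Lhx1 did most of the selecting. A further 9 barcodes met both minimums but held 28.6 to 51.4 UMIs per 10000 of the MG genes, 6 of them in the control library, against 0.784 to 9.47 in the horizontal cells.

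**Figure D1:**
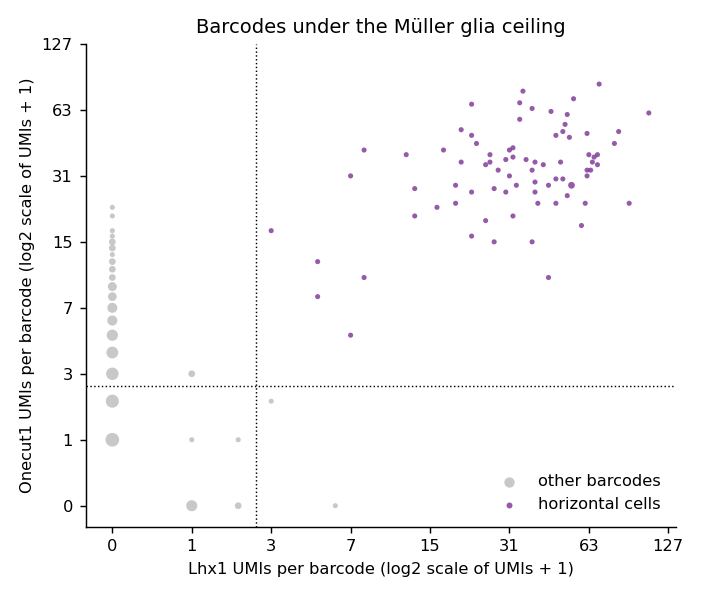
Lhx1 UMIs (x axis) against Onecut1 UMIs (y axis), both on a log2 scale of UMIs + 1, for barcodes under the MG ceiling, with larger points where more barcodes coincide and dotted lines between 2 and 3 UMIs. The 80 horizontal cells (purple) lie above and to the right of both lines, and most other barcodes with Onecut1 (gray) held 0 Lhx1 UMIs.

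The label was checked on markers that the rule did not use. Of Onecut2, Prox1, Calb1, Tfap2b, Gja10 and Sept4, all 6 were found in 71 of the 80 cells and at least 5 in every cell. Calb1, the calcium buffer calbindin (chr4:15881264-15908064 in GRCm38), stood at 2960.3 (2871 to 3052), 2849 (2757 to 2943) and 2379.6 (2302 to 2459) CPM in the control, CCA and CCANT libraries, and the lowest, median and highest cells held 609, 2669 and 6049 CPM. The libraries overlapped cell by cell, and amacrine-like cells held 34.1 CPM. Gja10, which encodes a connexin of horizontal cell gap junctions (chr4:32596960-32602760), was found in 71 cells at 40.3 (30.4 to 52.3), 44.9 (34.0 to 58.1) and 48.2 (37.7 to 60.6) CPM. All other barcodes under the ceiling together held 3 Gja10 UMIs and amacrine-like cells 0, which puts horizontal cells at least 499-fold higher than amacrine-like cells against a floor of 3 UMIs. Sept4, a septin GTPase, was found in every cell at 2701, 2224 and 2149 CPM.

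The horizontal marker list of 9 genes, Lhx1 and Onecut1 included, summed to 10436, 9711 and 9359 CPM in the 3 libraries, against 1072 CPM in amacrine-like, 210.2 CPM in ganglion-like and 406 CPM in MG-rich barcodes, those at or over the MG ceiling.

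**Figure D2:**
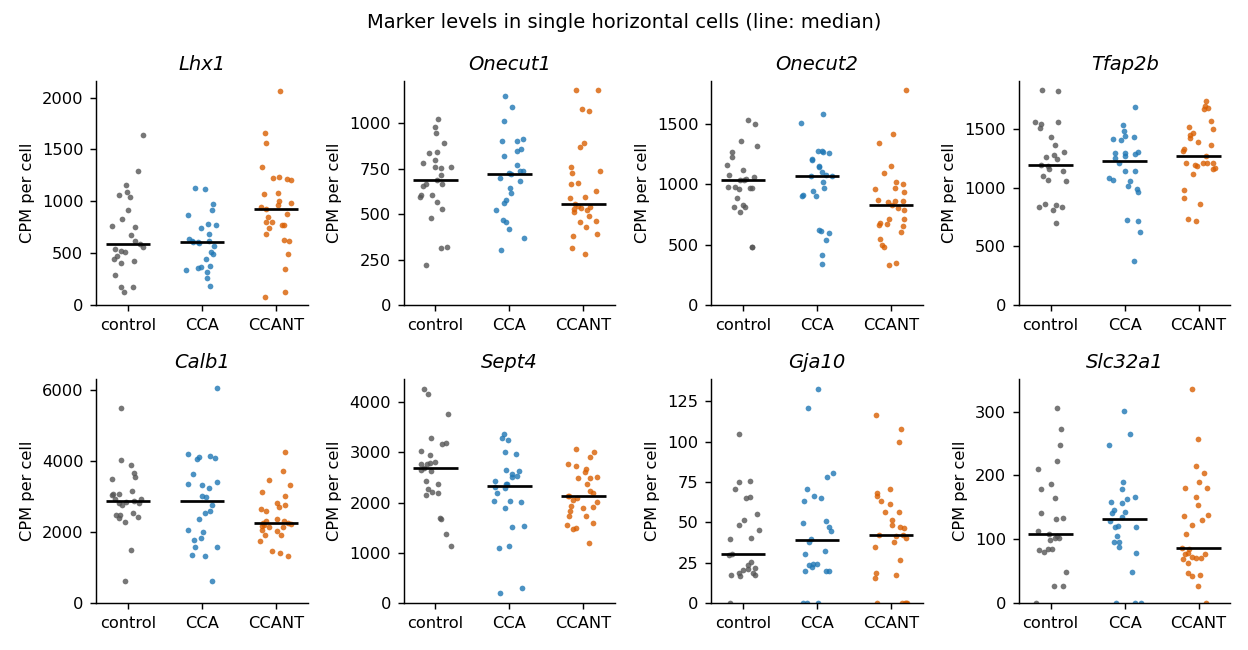
CPM per cell (y axis, linear and starting at 0) of Lhx1, Onecut1, Onecut2, Tfap2b, Calb1, Sept4, Gja10 and Slc32a1 in each of the 80 horizontal cells, by library (x axis), with a line at the median. Every cell held Calb1, at 609 to 6049 CPM, and the 3 libraries overlapped for each gene.

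Other neurons of the same libraries gave the background. Amacrine-like cells (1140 barcodes) held 3 or more UMIs of Gad1 and of Pax6 under the same MG ceiling, ganglion-like cells (243) held 3 or more of Rbpms and of Slc17a6, and all other barcodes under the ceiling numbered 12929. Barcodes that met both gates were in neither class. The genes of these gates were fixed by the gating. A gene counted as higher or lower where pooled CPM differed at least 4-fold in each of the 3 libraries, over genes at 50 CPM or more in horizontal cells or in the other class. Against all others, 169 of 5028 genes (3.36%) were higher and 549 (10.9%) lower. Against amacrine-like cells 168 of 4790 (3.51%) were higher and 408 (8.52%) lower, and against ganglion-like cells 209 of 4804 (4.35%) were higher and 446 (9.28%) lower. Median log2 ratios over the genes compared were -0.19, -0.18 and -0.15. Since the cells were chosen by their own counts, these ratios describe them and are no test. A gene that reached 50 CPM through 1 class alone had to differ, so the counts of each list below describe the genes that passed the level and support nothing about the list.

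Of the higher genes, the 20 with the largest ratios over all others began with genes for which no retinal role is given here. Bsnd, which encodes barttin, the accessory subunit of ClC-K chloride channels of kidney and inner ear (chr4:106483456-106492283), stood at 76.3 (62.4 to 92.2), 62.2 (49.2 to 77.5) and 98.3 (83.1 to 116) CPM in the 3 libraries. It was found in 75 of 80 cells, with 10 UMIs in all other barcodes under the MG ceiling, a ratio of 1673-fold. Tecrl, an enoyl-CoA reductase-like protein, stood at 432, 376 and 153 CPM and was 1266-fold higher. The noncoding RNAs of the 20 were Gm28182 (1879-fold), Lhx1os (1206-fold), named for its place beside Lhx1, 9030625G05Rik (509-fold), Gm16551 (275-fold) and Gm12082 (230.5-fold).

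Receptors and kinases were another group of the 20. Adra2a, the alpha-2A adrenergic receptor, stood at 369 (338 to 402), 357 (325 to 391) and 354 (325 to 386) CPM in 79 of 80 cells, with overlapping intervals in the 3 libraries and a ratio of 192-fold over all others. F2r, the thrombin receptor PAR1, stood at 373, 254 and 179 CPM (77.2-fold). Prkg2, a cGMP-dependent kinase (148-fold), was found in 78 cells and Wnk4, a kinase that regulates chloride cotransporters (81.1-fold), in 80. Thsd7b, a thrombospondin-repeat membrane protein, stood at 3020, 2683 and 2473 CPM (53.5-fold). The others were Wfdc10, a protein with a protease inhibitor domain (472-fold), Marc1, a mitochondrial reductase (143-fold), Myzap, a junction protein (99.2-fold), and Onecut3, Onecut2, Calb1, Megf11 and Syt2, which are given with their groups.

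Promoters of 4 genes are printed because Onecut and LIM homeodomain factors mark these cells, to show windows of horizontal cell genes with and without the letters that those factor families are known to prefer. Each is a RefSeq window of 300 bases around the annotated start (GRCm38.p6), 5′ to 3′ on the strand of the gene. Capitals mark ATCAAT, the Onecut core, or its reverse complement ATTGAT, and TAATTA, a palindrome bound by many homeodomain factors. Tfap2b (chr1:19211804-19212103, plus strand) held 1 Onecut core, Lrrc4 (chr6:28831698-28831997, minus strand) 1 TAATTA, and Lmo1, a LIM-only factor gene among the 169 (chr7:109175158-109175457, minus strand), 2 Onecut cores and 1 TAATTA, while the second, overlapping window of Lmo1 held 0 Onecut cores. Gja10 (chr4:32602333-32602632, minus strand) held neither.
Tfap2b: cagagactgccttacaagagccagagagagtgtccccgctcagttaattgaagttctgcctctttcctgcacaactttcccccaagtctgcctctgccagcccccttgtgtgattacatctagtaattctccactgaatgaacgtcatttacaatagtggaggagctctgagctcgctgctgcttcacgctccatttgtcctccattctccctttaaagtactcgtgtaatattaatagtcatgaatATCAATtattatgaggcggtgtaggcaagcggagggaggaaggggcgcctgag
Lrrc4: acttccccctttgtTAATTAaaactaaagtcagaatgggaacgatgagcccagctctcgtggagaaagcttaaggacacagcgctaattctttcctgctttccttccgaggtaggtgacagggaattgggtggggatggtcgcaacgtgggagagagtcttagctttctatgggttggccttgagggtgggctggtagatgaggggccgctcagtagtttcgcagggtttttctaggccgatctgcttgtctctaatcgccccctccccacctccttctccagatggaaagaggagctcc
Lmo1: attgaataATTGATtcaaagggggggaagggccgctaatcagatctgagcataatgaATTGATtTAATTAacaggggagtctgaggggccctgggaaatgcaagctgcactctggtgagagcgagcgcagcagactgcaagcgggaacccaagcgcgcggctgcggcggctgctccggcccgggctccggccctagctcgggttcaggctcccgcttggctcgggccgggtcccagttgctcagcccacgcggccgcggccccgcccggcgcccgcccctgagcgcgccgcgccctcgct
Gja10: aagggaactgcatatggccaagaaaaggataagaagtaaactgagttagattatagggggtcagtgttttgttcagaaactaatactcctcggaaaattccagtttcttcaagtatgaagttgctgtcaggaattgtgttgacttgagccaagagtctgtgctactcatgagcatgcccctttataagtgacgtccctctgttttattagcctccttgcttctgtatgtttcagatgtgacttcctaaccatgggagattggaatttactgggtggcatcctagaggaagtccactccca
Of the 169 higher genes, 117 matched 166 windows, and ATCAAT was present on either strand in 14 of them (8.43%, 4.69 to 13.7). It was present in 4.15% of 5296 windows of the genes compared, 5.01% of 559 windows of the lower genes and 7.54% of all 32851 promoters. TAATTA was present in 10 of the 166 (6.02%, 2.93 to 10.8), against 2.81%, 4.29% and 5.29%. Overlapping windows of 1 gene can hold the same site and were counted separately, so these intervals are too narrow, and no difference from any of these backgrounds is read from them. A match of letters is not a bound site.

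Of 10 transcription factors of horizontal cells or their development besides those of the rule, 6 were compared with all others: Onecut2, Onecut3 and Tfap2b were higher, Isl1 was lower, and the median ratio was 1.99. Onecut3 (chr10:80494835-80517276) stood at 273 (247 to 302), 253 (226 to 282) and 251 (226 to 278) CPM, and the lowest, median and highest cells held 80.3, 254 and 512 CPM. The 3 libraries overlapped, and 36 UMIs in all other barcodes under the MG ceiling gave a log2 ratio of 10.56 (10.08 to 11.08). Onecut2 stood at 1036, 1008 and 850 CPM, with a log2 ratio of 6.62 (6.55 to 6.70). Prox1, which acts in horizontal cell specification, stood at 1087 (1033 to 1143), 1073 (1017 to 1132) and 1102 (1049.6 to 1157) CPM, with a log2 ratio of 3.88 (3.81 to 3.95) over amacrine-like cells. Against all others Prox1 did not reach 4-fold in each library and was not called. Tfap2b, an AP-2 factor shared with amacrine cells, stood at 1217, 1180.3 and 1276 CPM, 0.48 (0.44 to 0.53) over amacrine-like and 8.56 (8.14 to 9.02) over ganglion-like cells. Its relative Tfap2a went the other way against amacrine-like cells, at 33.9 CPM in 58 horizontal cells against 178 CPM. Pax6, an eye field factor that gated the amacrine-like cells, was found in all 80 horizontal cells at 372, 370.1 and 449 CPM, and Sall3, a zinc finger factor, in 53 at 30.2, 19.7 and 22.1 CPM. Ptf1a and Foxn4, factors of the progenitors, gave 0 UMIs. Isl1, a factor of bipolar and ganglion cells, gave 22 UMIs in 6 cells, 63.6% of them in 1 CCA cell that also held bipolar markers.

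Mouse horizontal cells are inhibitory interneurons, and the genes of GABA and glycine were counted in them. Of 9 genes of GABA and glycine, 7 were compared with all others, 0 were higher and 6 lower (median -3.90). Slc32a1, the vesicular transporter for GABA and glycine, was found in 75 of 80 cells at 126 (108 to 146), 129.9 (111 to 151) and 120.4 (103 to 139) CPM, with overlapping intervals in the 3 libraries. Gad2, a GABA-synthesizing enzyme, gave 2 UMIs in 2 cells, or 0.481 CPM (0.0583 to 1.74), against 354 CPM in amacrine-like and 40.1 CPM in ganglion-like cells. Gad1, the other synthesizing enzyme, gated the amacrine-like cells. In horizontal cells it gave 33 UMIs in 11 cells, 66.7% of them in 1 CCANT cell that met the amacrine-like gate. Horizontal cells thus held the vesicular transporter in most cells and transcripts of the synthesizing enzymes in few. The GABA transporter Slc6a11 (8.90 CPM) and the GABA transaminase Abat (5.05 CPM) were also low, at log2 ratios of -3.29 (-3.81 to -2.82) and -4.62 (-5.32 to -4.00) to ganglion-like cells. Gad1 entered the definition of that class by exclusion, since barcodes that also met the amacrine-like gate were left out of it. Against ganglion-like cells Slc32a1 was the 1 gene of the list that was higher (4 compared, 3 lower, median -3.36). The glycine transporters Slc6a5 and Slc6a9 gave 1 and 25 UMIs.

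Of 15 GABA receptor genes, 13 were compared with all others, 0 were higher and 6 lower (median -2.36). Gabra3, an alpha subunit of GABA-A receptors, stood at 121 (103 to 141), 107 (89.8 to 127) and 138 (120.2 to 159) CPM, with a log2 ratio of -0.02 (-0.16 to 0.11) to amacrine-like cells. Gabbr1, a subunit of the metabotropic GABA-B receptor, was found in 77 cells at 145, 122 and 138 CPM. Gabrb1, a beta subunit, gave 39 UMIs in 7 cells, 56.4% of them in 1 cell. Gabrr1, a subunit of ionotropic GABA receptors, was found in 46 cells at 18.5 CPM, a log2 ratio of 1.55 (1.15 to 1.93) over amacrine-like cells.

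Horizontal cells receive photoreceptor glutamate through AMPA and kainate receptors. Of 15 such genes 11 were compared with all others, Cacng3 was higher, Gria1 and Cacng4 were lower, and the median was 0.00. Gria4 stood at 1189 (1133 to 1248), 1058 (1002 to 1116) and 1236 (1180.2 to 1294) CPM, and the lowest, median and highest cells held 443, 1063 and 2930.5 CPM. The AMPA subunit Gria2 (404, 355 and 348 CPM) and the kainate subunit Grik2 (424, 396 and 376 CPM) were, like Gria4, found in every cell. Gria1, another AMPA subunit, gave 62 UMIs in 14 cells, 14.9 CPM against 246 CPM in amacrine-like cells. Cacng3, an auxiliary subunit of AMPA receptors, stood at 427, 361 and 417 CPM, a log2 ratio of 2.35 (2.28 to 2.42) over all others.

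CCANT retinas received NMDA, an agonist of NMDA receptors. Of 7 NMDA receptor genes, 3 were compared with all others, 0 were higher and 2 lower (median -4.73). The obligatory subunit Grin1 was found in 79 of 80 cells at 256 (230.2 to 284), 256 (229 to 285) and 251 (226 to 278) CPM. The partner subunits were scarce: Grin2a gave 7 UMIs in 7 cells, or 1.68 CPM (0.677 to 3.47), and Grin2b 15 in 7, or 3.61 CPM (2.02 to 5.95). Ganglion-like cells held 211 and 199 CPM of these, log2 ratios of -6.97 (-8.29 to -5.93) and -5.79 (-6.62 to -5.06). Grin1 itself had a log2 ratio of 0.67 (0.56 to 0.78) to ganglion-like cells, so it did not share the low level of its partners.

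Of 9 calcium channel genes, 6 were compared with all others, 1 was higher and 2 were lower (median -0.98). The T-type channel Cacna1h was the higher one, at 259.7 (234 to 288), 247 (221 to 276) and 222 (199 to 247) CPM in 79 of 80 cells, 3.87 (3.72 to 4.02) over amacrine-like and 4.14 (3.92 to 4.38) over ganglion-like cells. The L-type channel Cacna1c gave 31 UMIs in 14 cells, a log2 ratio of -3.95 (-4.51 to -3.45) to all others, and the P/Q-type Cacna1a stood at 234, 169 and 234 CPM. Of 8 HCN and sodium channel genes 5 were compared, 0 were higher and 2 were lower, Scn1a among them (median -0.83). The sodium channels Scn2a (95.5 CPM) and Scn8a (87.6 CPM) were found in 77 and 76 cells, whereas Scn1a gave 30 UMIs in 20.

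Of 20 genes of vesicle release, 17 were compared with all others, 1 was higher and 3 were lower (median -0.96). Syt2, a fast calcium sensor, was the higher one, found in all 80 cells at 516 (479 to 555), 465 (429 to 504) and 462 (428 to 498) CPM, against 1.73 CPM in amacrine-like cells and a log2 ratio of 4.10 (3.95 to 4.26) over ganglion-like cells. The related sensor Syt1 lay the other way, at 1168 CPM against 3359.5 and 2593 CPM. Snap25, a fusion protein, stood at 4365 (4256 to 4476), 4909 (4788 to 5032) and 6047 (5923 to 6173) CPM. The complexins Cplx2 (38.7 CPM) and Cplx3 (52.9 CPM), which regulate fusion, had log2 ratios of -3.02 (-3.25 to -2.79) and -3.02 (-3.22 to -2.83) to amacrine-like cells.

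**Figure D3:**
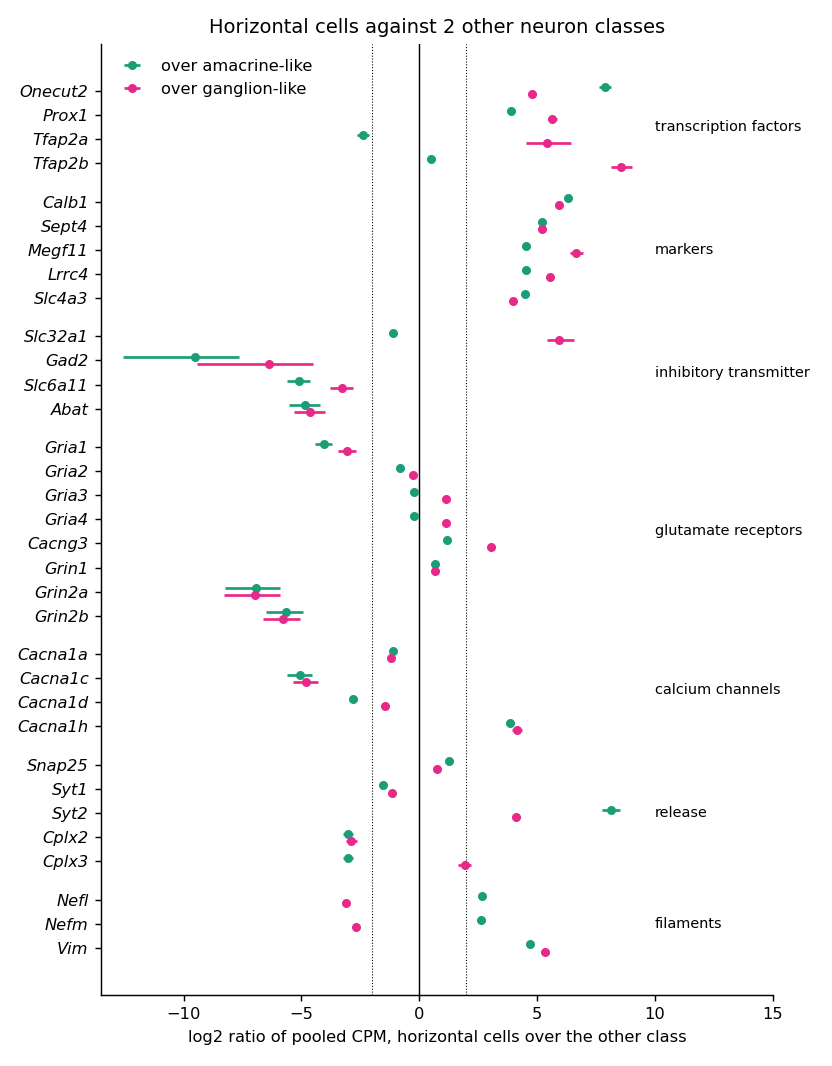
Log2 ratio of pooled CPM in horizontal cells over amacrine-like (green) and ganglion-like cells (pink) on the x axis for genes grouped by role on the y axis, with bars for exact 95% counting intervals, a solid line at 0 and dotted lines at 4-fold. Onecut2, Calb1, Cacna1h, Syt2 and Vim lie right of the dotted line against both classes, and Gad2, Grin2a, Grin2b and Cacna1c left of it.

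Of 8 calcium-binding genes, 7 were compared with all others, Calb1 was higher, at a log2 ratio of 6.46 (6.41 to 6.50), and 3 were lower (median -0.30). Calb2, calretinin, gave 26 UMIs in 20 cells, -8.63 (-9.24 to -8.08) to ganglion-like cells. Of 6 filament genes 5 were compared and 0 were called either way (median 1.43). Vim, the intermediate filament of glia, was found in all 80 cells at 862 (814 to 912), 906 (854 to 959) and 1157 (1103 to 1213) CPM, against 37.6 CPM in amacrine-like and 24.2 CPM in ganglion-like cells. The neurofilaments Nefl (255 CPM) and Nefm (149 CPM) were each found in 78 cells and lay between amacrine-like (39.9 and 24.0 CPM) and ganglion-like cells (2207 and 961 CPM). Of 9 effector genes known from horizontal cells, 7 were compared, Calb1, Sept4 and Megf11 were higher and 0 lower (median 2.04).

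Of 13 adhesion and guidance genes, all were compared with all others, Lrrc4 and Megf11 were higher and Lrrc4c, Ntng2 and Dscam lower (median 0.47). Lrrc4, a postsynaptic adhesion protein, stood at 1441 (1379 to 1505), 1246 (1186 to 1309) and 1246 (1190 to 1304) CPM, a log2 ratio of 5.06 (5.01 to 5.11). Its paralog Lrrc4c lay the other way at 126, 154 and 175 CPM, -2.81 (-2.93 to -2.70). Megf11 and Megf10, receptors in the spacing of horizontal cells, stood at 942, 775 and 759 CPM and at 130.2, 106 and 109.7 CPM. Over amacrine-like cells their log2 ratios were 4.52 (4.42 to 4.61) and 3.88 (3.66 to 4.10). Dscam, a spacing molecule of other retinal neurons, gave 50 UMIs in 12 cells, most of them in 1, against 819 CPM in amacrine-like cells. Of 10 genes of proton and bicarbonate handling 7 were compared, 1 was higher and 3 were lower (median -0.97). Slc4a3, a chloride-bicarbonate exchanger (chr1:75546266-75562172), was the higher one, found in every cell at 2114 (2038 to 2191), 1882 (1807 to 1959) and 2022 (1951 to 2096) CPM, a log2 ratio of 5.41 (5.37 to 5.45).

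In the gap junction list of 9 genes, Gjd2, the main neuronal connexin, was the one gene at the level for comparison, which it reached through the other barcodes alone. It gave 10 UMIs in 7 horizontal cells, a log2 ratio of -4.41 (-5.47 to -3.53). Gja10 lay under 50 CPM in both classes and was not compared, and Gjc1, another connexin, gave 41 UMIs in 29 cells. Of 7 neurotrophin genes 2 were compared (median -2.29): Ntrk2, the BDNF receptor TrkB, stood at 289, 213 and 233 CPM and was not called, and Ntrk3, the receptor TrkC, was lower, with 13 UMIs in 9 cells.

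The lists chosen for the treatments held 0 genes that were higher in horizontal cells than in all others. Lower were 4 of 7 interferon genes compared (median -2.67), 7 of 9 immediate-early genes (-2.62), 1 of 3 neuron injury genes (-1.61), 2 of 4 cell cycle genes, Mki67 and Top2a, which mark dividing cells and reached the level through the other barcodes alone (-4.98), 0 of 7 heat shock genes (0.73) and 0 of 6 histone deacetylase genes (-0.11). Against amacrine-like cells, 0 of 4 interferon and 0 of 5 immediate-early genes were called.

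Transcripts of other cell types were counted in the same cells. The rod list stood at 148 (129 to 169.9), 240.2 (214 to 269) and 369 (338 to 401) CPM in the control, CCA and CCANT libraries. Amacrine-like cells, which do not express rod genes of their own, held 331, 701 and 882 CPM, ganglion-like cells 256, 338 and 841 CPM and MG-rich barcodes 472, 1062 and 1839.6 CPM, so the order of the libraries was the same in each class. In single cells the bipolar list stood out in CCA: it summed to 97.1 (81.4 to 115), 563 (522 to 606) and 117 (100.3 to 136) CPM, and 3 CCA cells held 62.3, 56.5 and 10.8 bipolar UMIs per 10000 beside a CCA median of 1.40. Those 3, 1 CCANT cell in the amacrine-like gate and 1 control cell with T-cell UMIs (4.82 per 10000) held markers of another class. Doublets were not called, these 5 cells met the rule and were kept, and without them the CCA bipolar level was 128 CPM. 2 CCANT cells stood apart in the rod list, at 14.2 and 21.3 UMIs per 10000 beside a CCANT median of 2.94. The value of 14.2 came from the shallowest cell, of 4223 UMIs, and rested on few rod UMIs.

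The MG list summed to 1598, 1679.5 and 1969 CPM, with Vim as 862, 906 and 1157 CPM of it. The amacrine list, which holds Tfap2b, Pax6, Slc32a1 and C1ql1, summed to 2526, 2552 and 3048 CPM. The ganglion list, which holds Nefl, summed to 391, 383 and 398 CPM. These named genes were found in nearly all horizontal cells, so the 2 sums do not measure transcripts of other cells alone. The cone list summed to 17.3, 51.2 and 44.1 CPM, the microglia list to 23.0, 17.3 and 36.1 CPM and the endothelial list to 30.9, 48.0 and 28.1 CPM. Lowest were the astrocyte list at 0.719, 10.2 and 8.69 CPM, the pericyte list at 2.88, 3.94 and 2.01 CPM, the T-cell list at 15.8, 1.57 and 0.669 CPM and the pigment epithelium list at 0, 0 and 0.669 CPM.

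**Figure D4:**
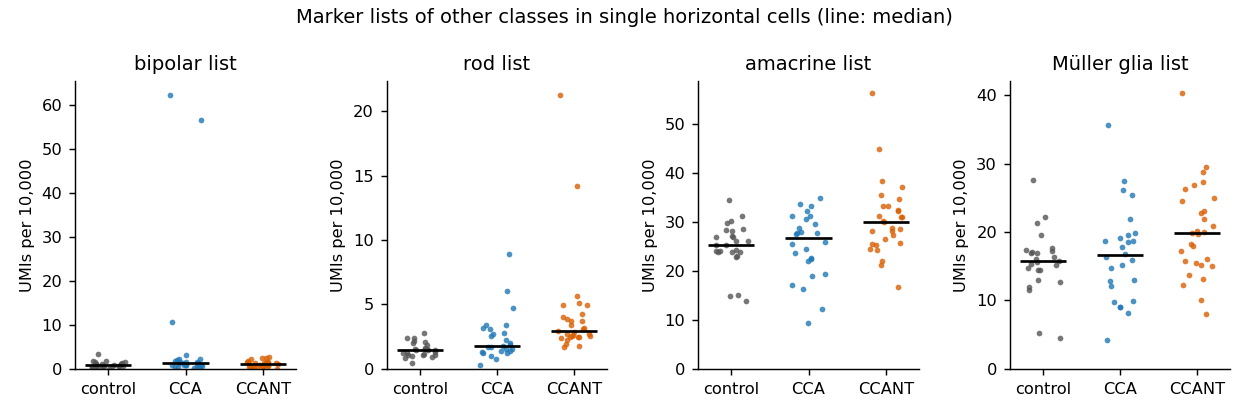
UMIs per 10000 (y axis, linear and starting at 0) of the bipolar, rod, amacrine and MG marker lists in each of the 80 horizontal cells, by library (x axis), with a line at the median. 3 CCA cells stand above the rest in the bipolar list (62.3, 56.5 and 10.8) and 2 CCANT cells in the rod list (14.2 and 21.3). The rod value of 14.2 is that of the shallowest cell, of 4223 UMIs.

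The reporter of the sort was close to absent. tdTomato gave 3, 7 and 2 UMIs in the 3 libraries, or 2.16 (0.445 to 6.31), 5.51 (2.22 to 11.4) and 1.34 (0.162 to 4.83) CPM. MG-rich barcodes held 60.2, 109 and 59.0 CPM and amacrine-like cells, at which Cre was not aimed either, 1.65, 5.37 and 1.87 CPM. The intervals of horizontal cells held the amacrine-like values in each library. Amacrine-like cells came through the same sort, and the source of these UMIs was not tested. After thinning each cell to 8000 UMIs, 0 of 25, 1 of 26 and 1 of 28 horizontal cells held a tdTomato UMI (1 shallower CCANT cell left out), where 0 of 25 allows a share of up to 13.7% (exact binomial). Before thinning 3, 6 and 2 cells held 1. The thinned shares were 1.23%, 2.75% and 1.97% in amacrine-like and 35.9%, 54.8% and 35.1% in MG-rich barcodes, and a median amacrine-like cell held 25679 to 27639 UMIs where a median MG-rich barcode held 20343 to 23697. GFP gave 0, 0 and 1 UMI. Control amacrine-like cells held 6.61 CPM (5.09 to 8.44) of GFP, above the upper limit of 2.65 CPM for control horizontal cells. In CCA and CCANT the amacrine-like values of 0.871 and 0.493 CPM lay inside the intervals of horizontal cells.

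To see how the cells varied among themselves, 79 cells were thinned to 20000 UMIs (1 shallower cell left out). Over 3756 genes with a mean of at least 1 thinned UMI the variance over the mean had a median of 1.24, and it exceeded 2 in 470 genes and 5 in 103. Of the 10 highest, Malat1, a nuclear noncoding RNA (130.2; 501 to 3037, median 1442 UMIs), Lsamp, an adhesion protein (37.8; 79 to 665, median 255), and Arhgap15, a GTPase-activating protein (31.2; 0 to 174, median 35), were found in nearly all cells. The other 7 rested more on single cells: 1 cell held 57.3% of the UMIs of Nr1d1, 45.8% of Zfp804b, 46.0% of Pde10a, 71.2% of Nnat, 43.4% of Unc13c, 45.7% of Otx2os1 and 37.5% of Slit2. Among identity genes, the variance over the mean was 2.30 for Tfap2b, 2.87 for Onecut2, 3.86 for Prox1 and 4.71 for Sept4, each above the median of all genes. These 4 genes had means of 19.5 to 46.5 thinned UMIs, and the median was not matched for level. The comparison therefore does not show them to be unusually variable. Gja10, at 0.938, fell under the minimum mean. Tecrl (6.81; 0 to 30, median 4) and Calb1 (7.72; 12 to 134, median 53) lay above 5.

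Between groups, a gene was called where CPM differed 2-fold or more with an interval that excluded 0, over genes with at least 50 CPM in the mean of the groups and 50 UMIs in both together. CCA over control gave 32 of 3707 genes higher (0.863%) and 4 lower (0.108%), and CCANT over control 15 of 3672 higher (0.408%) and 9 lower (0.245%). With an MG ceiling of 40 per 10000 the counts were 23 and 25 in CCA and 11 and 45 in CCANT, and with a minimum of 20 CPM and 20 UMIs 133 and 19, and 68 and 30. Both contrasts share the control library, so its values enter both. The median log2 ratio over the genes compared was 0.01 in either. Of the 20 leading identity genes, Tecrl and F2r were called, both lower in CCANT. In the 21 gene lists, the calls included Car10 and Jun (higher in CCA) and Cacna1d (higher in CCANT), and list medians lay between -0.44 and 0.42 in CCA and between -0.34 and 0.33 in CCANT.

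The 5 largest ratios of CCA over control were in C130073E24Rik, a noncoding RNA, Ntng1, the adhesion protein netrin-G1, Gm20754, a noncoding RNA, Tenm3, a teneurin, and Zfp804b, a zinc finger gene. C130073E24Rik gave 1, 135 and 2 UMIs in the control, CCA and CCANT libraries, Ntng1 2, 194 and 1 UMIs, Gm20754 2, 150 and 4 UMIs, Tenm3 2, 147 and 51 UMIs and Zfp804b 18, 614 and 26 UMIs. All 5 lay under 50 CPM in the control and reached the level for comparison through CCA alone, so a call could go in 1 direction only. Their log2 ratios were 7.21 (4.70 to 12.52), 6.73 (4.86 to 9.79), 6.36 (4.48 to 9.42), 6.33 (4.45 to 9.39) and 5.22 (4.55 to 5.99). They rested on the cells with markers of another class: without those, C130073E24Rik had 0 CCA UMIs, and the others had log2 ratios of 1.25, 0.83, 0.25 and 0.47. Car10, a carbonic anhydrase-related protein, likewise went from 5.12 (3.87 to 6.76) to -0.07. Without those cells 9 genes were higher in CCA (among them Pcsk2, Jun, Lrrtm4, Bc1, Hist3h2ba, Hlf, Nr1d1 and Gm19951) and 3 lower (Fam174b, Fam104a and Iqsec2), and without the cell with the most UMIs of each gene 19 were higher and 3 lower.

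Single cells also carried part of the remainder. Nr1d1, the clock repressor Rev-erb alpha, gave 120, 436 and 136 UMIs, a log2 ratio of 1.99 (1.70 to 2.30), with 69.3% of the CCA UMIs in 1 cell and 0.33 without it. Jun, an AP-1 factor, gave 46, 86 and 49 UMIs and 1.03 (0.50 to 1.58), with 45.3% in 1 cell and 0.22 without it.

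The genes lower in CCA were Fam104a, Nupr1, Fam174b and Sacm1l. Fam104a, which encodes a cofactor of the ATPase VCP (chr11:113661319-113684155), stood at 859 (811 to 909), 318 (288 to 351) and 395 (364 to 428) CPM, with medians over cells of 565, 229 and 285 CPM. Its log2 ratio was -1.43 (-1.60 to -1.27) in CCA and -1.12 (-1.26 to -0.98) in CCANT, where amacrine-like cells gave 0.23 and 0.11. Without the control cell with the most UMIs the ratios were -1.28 and -0.97, so the CCANT call was lost. Nupr1, a stress-induced nuclear protein (chr7:126623249-126630861), stood at 262 (236 to 290.2), 114 (96.3 to 134) and 91.6 (76.9 to 108) CPM, with medians over cells of 169.5, 52.2 and 28.2 CPM and log2 ratios of -1.20 (-1.49 to -0.92) and -1.51 (-1.81 to -1.23). In amacrine-like cells Nupr1 gave 0.90 and -0.11, and in MG-rich barcodes 0.19 and 0.51, so the order of the libraries differed between classes. Nupr1 was called in CCA with all cells but not without the 5 cells of mixed markers, where its ratio lay just under 2-fold. Fam174b, a membrane protein, stood at 109 (92.0 to 127), 48.0 (36.7 to 61.7) and 47.5 (37.1 to 59.9) CPM, with ratios of -1.18 (-1.63 to -0.74) and -1.19 (-1.62 to -0.78). Sacm1l, a phosphoinositide phosphatase, stood at 86.3, 42.5 and 74.2 CPM and was called in CCA at -1.02 (-1.51 to -0.55) but not without the cells of mixed markers, at -0.91. Prmt8, an arginine methyltransferase and the next in order, stood at 183, 96.8 and 100.3 CPM and was not called, at -0.92 (-1.24 to -0.60) and -0.87 (-1.17 to -0.57).

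In these genes the control library stood above the CCA library, and whether the control or the treated cells were displaced cannot be told apart with 1 library each. The 8 Y-positive CCANT cells, of the sex of the control cells, gave log2 ratios to control of -1.69 (-1.99 to -1.40) for Fam104a, -2.60 (-3.40 to -1.90) for Nupr1 and -1.72 (-2.66 to -0.90) for Fam174b. For CCA no such cells existed.

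**Figure D5:**
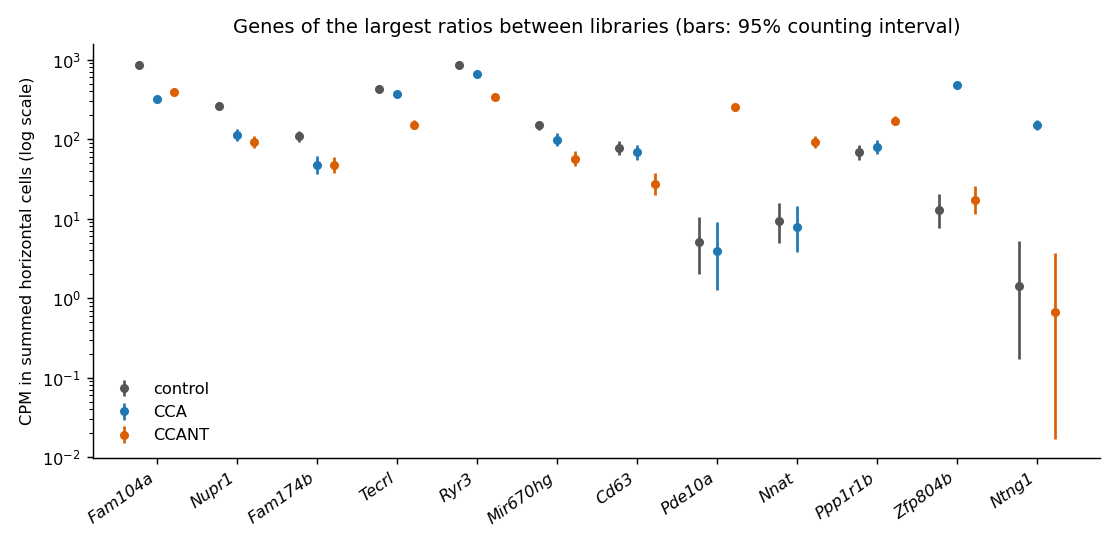
CPM in the summed horizontal cells of each library (y axis, log scale) for 12 genes that differed between libraries (x axis), with points for control, CCA and CCANT and bars for exact 95% counting intervals. Fam104a, Nupr1 and Fam174b were lower in CCA and in CCANT, Tecrl, Ryr3, Mir670hg and Cd63 were lowest in CCANT, and the rises of Pde10a, Nnat, Zfp804b and Ntng1 rested on few cells.

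The 5 largest ratios of CCANT over control were in Pde10a, Nnat, Ralyl, Ppp1r1b and Epha7. Pde10a, a cyclic nucleotide phosphodiesterase, gave 7, 5 and 383 UMIs, with CCANT UMIs in 7 of 29 cells and 62.4% of them in 1. Nnat, neuronatin, gave 13, 10 and 138 UMIs with 76.1% in 1 cell. Both lay under 50 CPM in the control and reached the level through CCANT alone. In the 8 Y-positive CCANT cells, Pde10a gave 0 UMIs and Nnat a log2 ratio of -0.30 (-2.75 to 1.57), so these rises lay in other cells. Ralyl, an RNA-binding protein, had a ratio of 1.79 (1.29 to 2.33), which was 0.74 without its highest cell, and Epha7, an ephrin receptor, one of 1.24 (0.86 to 1.63), which was 0.53. Ppp1r1b, the phosphatase inhibitor DARPP-32 (chr11:98348404-98357796), was spread over more cells. It stood at 68.3 (55.3 to 83.5), 79.5 (64.8 to 96.6) and 171 (151 to 194) CPM, with medians over cells of 45.4, 65.1 and 142 CPM, and was found in 26 of 29 CCANT cells. Its log2 ratio of 1.32 (0.98 to 1.68) was 1.14 without the highest cell and 1.60 (1.16 to 2.05) in the 8 Y-positive cells. Amacrine-like cells, with 36 Ppp1r1b UMIs in all, held 0.103, 1.09 and 1.97 CPM, so their level also was lowest in the control, at ratios of 3.40 (0.70 to 8.79) in CCA and 4.25 (1.61 to 9.63) in CCANT.

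Among the other 10 genes higher in CCANT, Cacna1d, an L-type calcium channel, stood at 51.8 (40.5 to 65.2), 84.3 (69.0 to 102) and 113 (96.6 to 131) CPM, a ratio of 1.13 (0.72 to 1.54) that was 0.99 without its highest cell and 0.82 (0.20 to 1.41) in the Y-positive cells. Stat3, a transducer of cytokine signals, stood at 38.8, 59.8 and 90.3 CPM (1.22). Bc1, a neuronal noncoding RNA, stood at 301, 770.1 and 667 CPM and Hist3h2ba, a histone gene, at 140.3, 289 and 314 CPM, and these were called in CCA as well. In amacrine-like cells the CCA and CCANT ratios were 0.80 and 0.85 for Bc1 and 0.87 and 1.19 for Hist3h2ba, in the same direction. Rdx, Srebf1, Snhg20, Pdlim7 and AC149090.1 were called as well. Without the highest cell of each gene, 6 genes were higher in CCANT (Nnat, Hist3h2ba, Ppp1r1b, Stat3, Pde10a and AC149090.1), and without the cells of mixed markers 14.

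The 9 genes lower in CCANT were Cd63, Nupr1, Tecrl, Mir670hg, Ryr3, Fam174b, Fam104a, Asns and F2r. Ryr3, a calcium release channel of the endoplasmic reticulum (chr2:112631355-113217096), stood at 865 (817 to 915), 661 (617 to 707) and 336 (308 to 367) CPM, with medians over cells of 796, 676 and 309 CPM. The CCANT level was lowest and the CCA level between, with a CCANT ratio of -1.36 (-1.52 to -1.21), -1.21 without the highest control cell, -1.15 (-1.40 to -0.90) in the 8 Y-positive cells and -0.09 in amacrine-like cells. Tecrl stood at 432 (398 to 468), 376 (343 to 411) and 153 (134 to 174) CPM, with medians over cells of 265, 279 and 105 CPM and a ratio of -1.49 (-1.72 to -1.27), but -0.66 (-0.97 to -0.36) in the 8 Y-positive cells, under 2-fold. Mir670hg, a microRNA host transcript, stood at 149.6, 99.2 and 56.8 CPM, a ratio of -1.40 (-1.78 to -1.03) that was -0.84 (-1.42 to -0.30) in the Y-positive cells, so the call was lost there. Cd63, a tetraspanin of endosomes, stood at 77.7, 68.5 and 27.4 CPM, a ratio of -1.50 (-2.06 to -0.97). Without the cells of mixed markers 10 genes were lower in CCANT. Cd63 was not among them, and Gabra2 and Tfrc were added. F2r had a CCANT ratio of -1.06 (-1.28 to -0.85), which was -1.40 in the Y-positive cells. Asns, asparagine synthetase, stood at 140.3, 105 and 64.9 CPM, a ratio of -1.11. Without the highest control cell of each gene 7 of the 9 were called, F2r and Fam104a not.

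Of the lists chosen for the treatments, Jun was the 1 gene called between groups in horizontal cells. Over all genes compared, 0.863% were called higher and 0.108% lower in CCA, and 0.408% and 0.245% in CCANT. With shares that small, 0 calls in a short list are not read as a result about the list. The interferon list, in which several genes, Stat2, Gbp6, Irgm1 and Igtp among them, had been chosen by the study on MG of these libraries, summed to 489.9, 493 and 401 CPM, with log2 ratios of 0.01 (-0.15 to 0.17) in CCA and -0.29 (-0.45 to -0.13) in CCANT. The CCANT ratio was -0.14 without the cells of mixed markers. Medians over cells were 376, 386 and 447 CPM, so the CCANT median lay above the control median, opposite to the sums. In the control 1 cell held 13.8% of the UMIs of the list, and the control level was 437 CPM without it. The lower CCANT sum is therefore not read as a fall in the typical horizontal cell. At an MG ceiling of 40 per 10000, which brought the cells to 30 (control), 28 (CCA) and 30 (CCANT), the ratios were -0.30 in CCA and -0.98 in CCANT. The cause of this move was not tested. MG-rich barcodes gave -0.66 and -1.10, and amacrine-like cells -0.22 and -0.54. In horizontal cells 0 of 4 interferon genes compared were called in CCA and 0 of 4 in CCANT. The immediate-early list, genes that respond fast to stimulation or dissociation, summed to 385, 586 and 459 CPM, with ratios of 0.61 (0.44 to 0.77) and 0.26 (0.09 to 0.42). In CCA the ratio was 0.26 without the highest cell, and MG-rich barcodes gave 0.84 and 0.75.

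The heat shock list summed to 5152, 5002 and 4155 CPM, with ratios of -0.04 (-0.09 to 0.01) and -0.31 (-0.36 to -0.26), where amacrine-like cells gave -0.02 in CCANT. Hsp90aa1, a cytosolic HSP90 chaperone, stood at 1282, 1241 and 938 CPM, and 0 of 7 heat shock genes compared were called in CCA and 0 of 7 in CCANT. The release list summed to 8195, 8740.1 and 9991 CPM, with ratios of 0.09 (0.06 to 0.13) and 0.29 (0.25 to 0.32), beside 0.04 in CCANT amacrine-like cells. With median-of-ratios size factors they were 0.02 and 0.24. Snap25, which held most UMIs of the list in CCANT, had 0.47 (0.42 to 0.52) there. Gene by gene, 0 of 13 release genes compared were called in CCA (median -0.06) and 0 of 12 in CCANT (median 0.055). Over all genes compared, 0.863% were called higher and 0.108% lower in CCA, and 0.408% and 0.245% in CCANT. The counts of 0 for the heat shock and release lists are therefore not read as results. In CCANT the median release gene rose less than the sum, so the rise of the sum is not read as a shift of the whole list. The neurotrophin list, in which Ntrk2 held most UMIs, gave -0.41 (-0.64 to -0.19) and -0.29 (-0.50 to -0.08). The neuron injury list gave -0.06 (-0.21 to 0.09) and -0.10 (-0.25 to 0.05), the cell cycle list 0.22 (-0.10 to 0.54) and -0.26 (-0.60 to 0.08), and the histone deacetylase list, which holds the targets of TSA, 0.01 (-0.11 to 0.13) and -0.06 (-0.18 to 0.05), intervals that include 0.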

How the data were processed

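Droplet 3′ RNA libraries of 3 groups, 1 library each, were sequenced and processed by the authors with Cell Ranger 6.1.1 against mm10 with tdTomato and GFP added, with reads in introns included. The deposited values are raw UMI counts per gene and barcode, without normalization. Barcodes with at least 2000 features and at most 15% mitochondrial UMIs were kept here, with no upper limit of UMIs, and doublets were not called. Libraries held 219051219 to 224515457 UMIs over all barcodes. Horizontal cells and the 21 gene lists and 13 marker lists were chosen with earlier results of these data known.

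Counts were summed over cells of a class and library and given per 1000000 UMIs (CPM) of 32287 features. Ratios carry exact Poisson intervals, shares exact binomial ones. Genes named were members of the lists, the 20 with the largest ratio over other barcodes, the 5 largest ratios in each direction of each group contrast and the 10 of largest variance over mean, and further genes of short lists of calls were named after their values were seen. In calls and fold values between classes, a count under 3 UMIs on the lower side was set at a floor of 3. Ratios between groups used no floor. X-inactivation and Y-linked genes were left out of the comparisons of groups. Cells holding markers of another class were those with 10 or more bipolar UMIs per 10000, in the amacrine-like gate, or with 3 or more UMIs of both Cd3d and Cd3e. Of the authors' table of kept cells, the barcode names alone were used. Promoters came from RefSeq (GRCm38.p6) and gene positions from GENCODE (GRCm38). Python 3.11.15, numpy 2.4.6, scipy 1.17.1 and pandas 2.3.3 were used. The calls were tested on simulated sums drawn with Poisson counting error only and with folds above the cutoffs. Those sums held no variation between cells, so they do not cover calls that rest on single cells. Septin4 is listed as Sept4. Some genes of the lists are not reported here.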

Additional observations from a re-analysis of the deposited data

How the results depend on the processing

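Of 582 values recomputed under the alternatives, 230 levels and counts and 297 ratios of genes or gene lists stayed within their intervals or, for counts, within 1.5 times. No paired analysis was possible because each group had 1 library. Without any level filter beyond 10 UMIs, 274 genes were higher in horizontal cells. With 1 library left out, 175 to 183 genes were higher and 577 to 637 lower than in all others, 173 to 178 and 415 to 465 against amacrine-like, and 215 to 221 and 467 to 504 against ganglion-like cells. A minimum of 20 CPM and 20 UMIs gave 133 genes higher and 19 lower in CCA, and 68 and 30 in CCANT. An MG ceiling of 40 per 10000 gave 23 genes higher and 25 lower in CCA, 11 and 45 in CCANT, and MG lists of 2980 (control), 2287 (CCA) and 2298 (CCANT) CPM. The Y-positive CCANT cells alone gave 37 genes higher and 36 lower, 0 UMIs of Pde10a, which gave no ratio, and a Nnat log2 ratio of -0.30. After seeing the data 2 alternatives were added. Without cells of mixed markers 9 genes were higher in CCA, the CCA bipolar list stood at 128 CPM, and C130073E24Rik had 0 CCA UMIs and no ratio. Without the highest cell of each gene 19 genes were higher in CCA and 6 in CCANT. A minimum of 2 UMIs each of Lhx1 and Onecut1 gave a CCANT rod list of 587 CPM, and a mean over cells gave 420.5 CPM and a CCA bipolar list of 611 CPM. Other scaling moved the median ratio of all genes by 0.07 in CCA and 0.04 in CCANT. The causes of these moves were not tested beyond the construction of each alternative. The intervals of differences between groups, over 25 to 29 cells a library, cover counting error only.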
